A study of Mus musculus with 2 samples.

Results

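Lars2, Rn18s-rs5, Mir6236 and Gm39429 are 4 mouse genes grouped here as loci with ribosomal RNA-like sequence. A called peak was a member when its summit lay inside the RefSeq body of one of these genes or within 1 kb of it. The rule found 3 of 219 peaks in the HIF-1α list and 4 of 94 in the PPAR-γ list. The genes were chosen by their depth-scaled pileup ratios between the libraries, already known to be high on the PPAR-γ side. The values below that compare the libraries are therefore a description, and no test was made of them.

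Both libraries came from regulatory T cells of adipose tissue, sorted as TCRβ+CD4+CD25hiYFP+ cells from untreated male C57BL/6 mice of genotype Foxp3Cre at 4 months of age, with about 30000 cells in an assay. CUT&RUN was used, in which a nuclease tethered to an antibody cuts out the DNA around the antibody's target, and the freed fragments are sequenced. One group was the library made with the anti-HIF-1α antibody and the other the library made with the anti-PPAR-γ antibody, 1 library each. A library with a control antibody was not used here, and no comparison between the antibodies has a replicate check. Neither the number of mice behind each library nor the identity of the sorted cells was tested with these peak lists. The HIF-1α library held 5737208 tags after duplicate removal and the PPAR-γ library 2145910, a ratio of 2.67. The 95% intervals given are exact and reflect counting error alone, not the spread between libraries.

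The 18S, 5.8S and 28S ribosomal RNAs are cut from a long precursor, which RNA polymerase I transcribes from genes present in many tandem copies. The mouse reference assembly leaves out most of those tandem copies, while fragments and pseudogenes related to them lie scattered among other genes. Sequencing tags from the many copies can therefore be placed at the few related positions that the assembly holds. Whether tags with several possible positions were kept is not given in the sources used here, and the part that tags from other copies played at these loci was not tested. HIF-1α is the oxygen-regulated subunit of a hypoxia-induced transcription factor, and PPAR-γ is a lipid-sensing nuclear receptor that regulatory T cells of visceral fat depend on.

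The 4 genes form 3 separate loci in mm10. Rn18s-rs5, annotated as a pseudogene and named as a sequence related to 18S ribosomal RNA, occupies chr17:39846354-39848202. Mir6236, annotated as a microRNA gene of 123 bp on the plus strand, lies at chr9:110281287-110281409 inside Gm39429, a long noncoding RNA gene on the minus strand at chr9:110266638-110282670. Lars2, which encodes the mitochondrial leucyl-tRNA synthetase that charges leucine to tRNA inside mitochondria, is on the plus strand at chr9:123366927-123462675. The likeness of these loci to ribosomal RNA was taken from the grouping and from the name of Rn18s-rs5, and was not tested on sequence here.

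The mature microRNA of Mir6236 is the sequence that lies directly under a member peak, so it is shown first. It is followed by the mature microRNAs of Mir6240 and Mir6538, which stood on the list of possible ribosomal RNA-related genes and had no peak. Sequences are from RefSeq (GRCm38.p6), 5′ to 3′, with the seed, bases 2 to 8, in capitals.
miR-6236: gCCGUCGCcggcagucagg
miR-6240: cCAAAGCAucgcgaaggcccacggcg
miR-6538: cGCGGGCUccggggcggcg
The mature miR-6236 spans 19 bases at chr9:110281353-110281371, and both libraries' peaks contain it whole. Its first base lies 39 bp past the HIF-1α summit and 36 bp past the PPAR-γ summit. Its seed occurs in none of the other mouse microRNAs among the 1738 mature sequences in the table, and the longest run it shares with either miR-6240 or miR-6538 is 4 bases. It is rich in G and C, at 78.9% of its bases against a median of 52.2% over all mature sequences. Only 20 of the 1738 (1.15%) reach that share. The 19 bases were found in 0 of 32817 windows around gene starts, searched on both strands. No ribosomal RNA sequence was searched, so this count does not bear on likeness to it or on copies elsewhere in the genome. Of 1228 annotated microRNA genes, Mir6236 was the only one that any peak of either list overlapped. As a member it was chosen with its peaks known, so nothing is read from this count. For scale, 0.212% of all 49993 genes had a HIF-1α summit within 1 kb and 0.084% a PPAR-γ summit.

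The start of Gm39429 lies close to this peak but outside it. The window around that start is shown because, of the member start windows in the reference tables, it is the nearer to a member peak. It covers chr9:110282621-110282920 (GRCm38.p6, minus strand), with the 50 bases from the annotated start onward in capitals.
Gm39429 start: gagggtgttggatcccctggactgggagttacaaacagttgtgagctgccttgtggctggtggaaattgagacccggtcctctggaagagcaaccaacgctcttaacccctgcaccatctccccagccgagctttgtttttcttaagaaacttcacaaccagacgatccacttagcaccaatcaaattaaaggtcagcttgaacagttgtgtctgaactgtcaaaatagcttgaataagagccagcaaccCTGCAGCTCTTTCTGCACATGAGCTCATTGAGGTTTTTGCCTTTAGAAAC
The window begins 1.09 kb past the end of the HIF-1α peak and 1.05 kb past that of the PPAR-γ peak. Its G and C share is 47.7%, below that of the microRNA inside the peak. The window around the start of Lars2 was 94.8 kb from the nearest peak in each list. The letters ACGTG, a form of the core that HIF dimers read, were absent from both windows on both strands. So was the direct-repeat PPAR response element, which PPAR-γ reads with its partner RXR. Neither was searched for under any member peak, so their absence here does not bear on the peaks. Of all 32817 windows of 300 bases, 19.6% hold ACGTG and 0.0396% hold the PPAR element.

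Rn18s-rs5 carried the broadest signal of the 3 loci. The PPAR-γ list had a peak pair there, from 39846541 to 39847003 with a pileup of 133 and from 39847364 to 39848309 with a pileup of 259. Pileup is the number of tags, extended to the fragment length, that cover the summit. In the HIF-1α list, the peak from 39847446 to 39848632 had a pileup of 190. A further HIF-1α peak, from 39844042 to 39847143 with a pileup of 179, reached into the gene but had its summit 1855 bp before it, so it fell just outside the rule. Every member summit lay inside a gene body, at a distance of 0 bp. At 3102 bp, that excluded peak was the widest of the HIF-1α list, where the median width over all peaks was 401 bp. The peaks that touched Rn18s-rs5 covered 83.7% of its 1849 bp in the HIF-1α library and 70.4% in the PPAR-γ library, and left gaps of 302 and 360 bp between them. The first called HIF-1α peak began 2312 bp before the gene, whereas the first called PPAR-γ peak began inside it. These are edges of called peaks, set against a local background, and do not show where tags begin. The HIF-1α and PPAR-γ member peaks also reached 521 and 198 bp into AY036118, a noncoding RNA gene on the minus strand whose last 91 bp overlap Rn18s-rs5.

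The Lars2 peaks lay at the far end of the gene, away from its start. The HIF-1α peak ran from 123461802 to 123462253 and the PPAR-γ peak from 123461793 to 123462265. Their summits were 659 and 653 bp before the 3′ end of this gene of 95.7 kb, that is, at 99.3% of its length in both libraries. The summits were 6 bp apart. The HIF-1α pileup was 55 and the PPAR-γ pileup 97.

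The Mir6236 peaks had the lowest pileups of the group, though not the lowest fold enrichments, which were at Rn18s-rs5. They ran from 110281250 to 110281533 in the HIF-1α and to 110281574 in the PPAR-γ library, with the same first position, and the summits were 3 bp apart. Both summits lay inside Mir6236 and 1356 and 1353 bp downstream of the annotated start of Gm39429. Pileups were 11 and 25. The median gap between summits over the other 87 shared pairs was 22 bp. The Rn18s-rs5 member pair was looser than either chromosome 9 pair, with summits 212 bp apart.

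**Figure D1:**
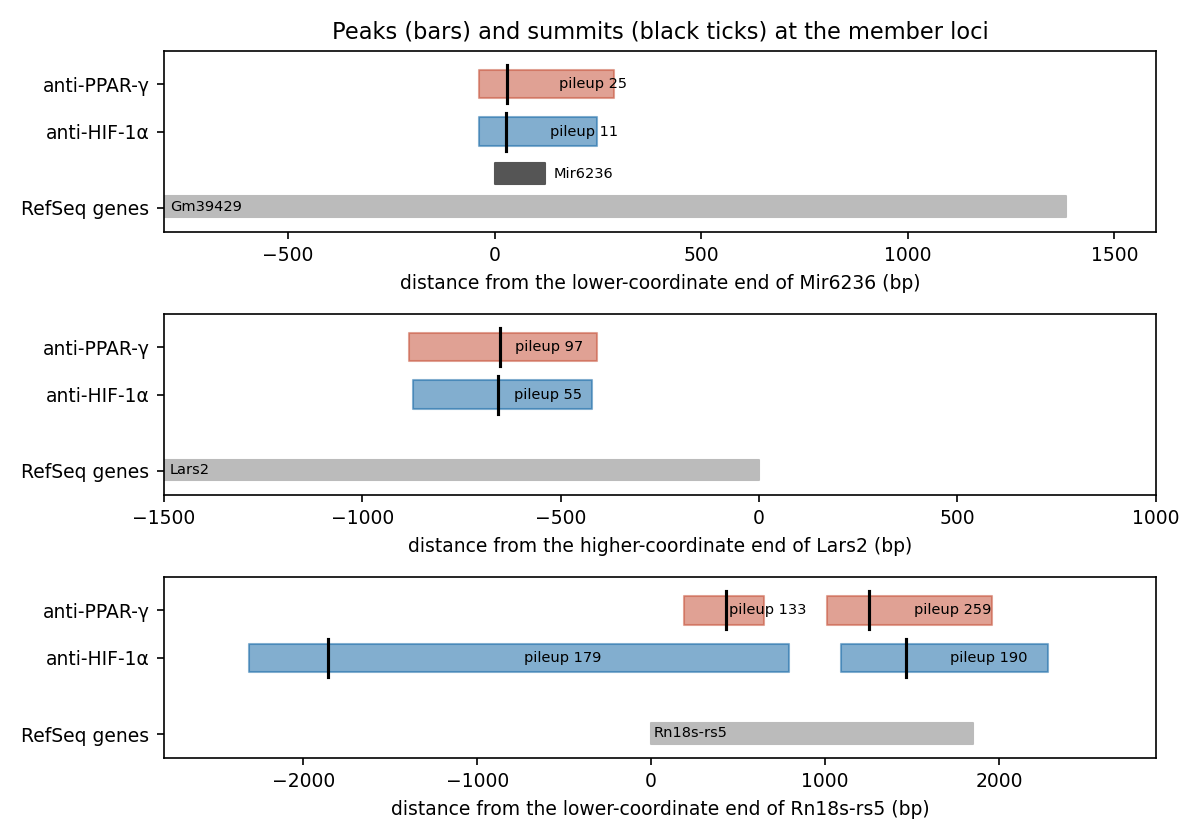
Peaks of each library (coloured bars) with their summits (black ticks) and pileups, over RefSeq gene bodies (grey), plotted by distance in bp from a gene end. Summits of the libraries nearly coincide at Mir6236 and Lars2 (3 and 6 bp apart), while at Rn18s-rs5 they are 212 bp apart and a broad HIF-1α peak begins 2312 bp before the gene.

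Scaled to depth, all 3 loci had more tags at the summit in the PPAR-γ library. At Rn18s-rs5 the HIF-1α pileup was 33.1 per 1000000 remaining tags and the PPAR-γ pileup 121, which gives a ratio of PPAR-γ over HIF-1α of 3.64 (3.01 to 4.42). At Lars2 it was 9.59 and 45.2 per 1000000, a ratio of 4.72 (3.35 to 6.69). At Mir6236 and Gm39429 it was 1.92 and 11.7 per 1000000, a ratio of 6.08 (2.88 to 13.7). The intervals of the 3 loci overlap. At Rn18s-rs5 the summits of the pair were 212 bp apart, so its pileups were read at different positions. By level, the order of the member pairs was the same in both libraries, Rn18s-rs5 highest, then Lars2, then Mir6236. The exact Poisson intervals of these pairs did not overlap within a library. The other PPAR-γ member peak at Rn18s-rs5 is not in a member pair. Its interval, 51.9 to 73.5 per 1000000, overlaps that of Lars2 in the same library, 36.7 to 55.1.

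**Figure D2:**
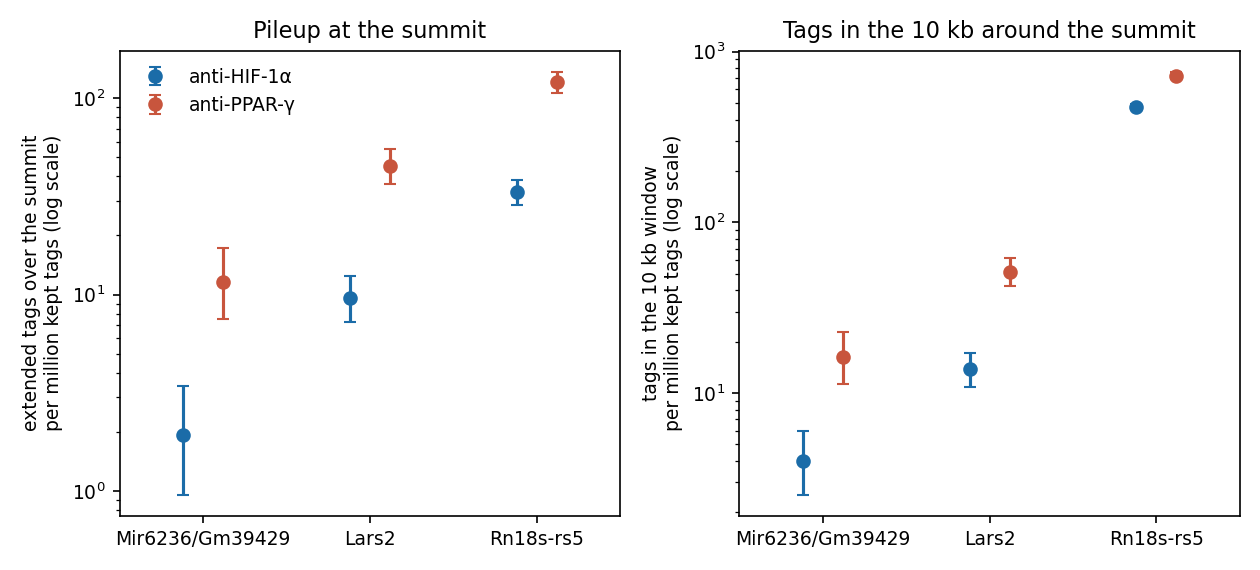
Pileup at the summit (left) and tags in the 10 kb around it (right), per 1000000 remaining tags on log axes, for the member pair of each locus. Points are single libraries and bars are exact 95% Poisson intervals of the counts. The PPAR-γ points are above the HIF-1α points at all 3 loci, least so for the window of Rn18s-rs5 (724 against 476 per 1000000).

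A PPAR-γ excess was common among shared peaks. A shared pair needs a called PPAR-γ peak, in the library with fewer tags. HIF-1α peaks without such a counterpart drop out, so positions with few PPAR-γ tags are under-represented among the pairs. How far this shaped the ratios was not tested. Peaks of the libraries that overlapped by at least 1 bp formed 90 pairs, since 1 of 89 PPAR-γ peaks with a counterpart met more than 1 HIF-1α peak. A ratio of at least 2 was found in 3 of 3 member pairs, against 38.9% of all 90 pairs, and nothing can be read from that count because these ratios chose the members. A ratio of at least 3 was found in 7 of 90 pairs (7.78%), among them the 3 member pairs. The median ratio was 4.72 over the members and 1.54 over the other pairs, whose middle range (lower to upper quartile) was 1.08 to 2.32. The pair formed by the first PPAR-γ peak at Rn18s-rs5 and the broad HIF-1α peak had a ratio of 1.99 (1.58 to 2.50), with summits 2286 bp apart, so its pileups do not describe the same position.

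The pairs outside the group with the most similar ratios lay on other chromosomes. By closeness to the members' median ratio on the log2 scale, over the 2 libraries, they were a position on chromosome 3, 109 kb from Gm8797, with pileups of 100 (HIF-1α) and 214 (PPAR-γ), a position inside Gphn, which encodes the scaffold protein gephyrin, with 21 and 49, and a position on chromosome 18, 17.8 kb from Gm7612, with 18 and 47. Their ratios were 5.72 (4.49 to 7.33), 6.24 (3.67 to 11.0) and 6.98 (3.98 to 12.8). In the ranking of all pairs by ratio, the members took places 3 (Mir6236), 5 (Lars2) and 6 (Rn18s-rs5), with these pairs at 4, 2 and 1.

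**Figure D3:**
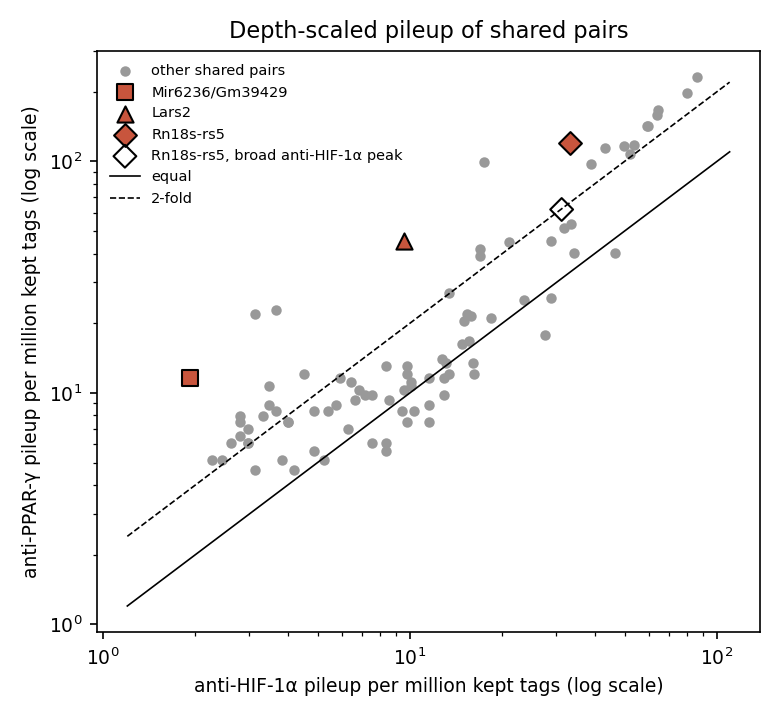
Pileup per 1000000 remaining tags in the HIF-1α (horizontal) and PPAR-γ library (vertical), log axes, for the shared pairs. Lines mark equal values and a 2-fold excess. The member pairs (filled symbols) lie above the 2-fold line, at ratios of 3.64 to 6.08, together with a minority of other pairs (grey), and the pair with the broad HIF-1α peak (open symbol) lies on it.

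The deposited fold enrichment holds more than the summit. It divides the pileup by a background taken from the 10 kb around the summit, and from both values the number of tags in that window was worked out. The result was a whole number, within 0.02 tags, for 215 of 215 HIF-1α peaks above the genome-wide background and for 94 of 94 PPAR-γ peaks. Windows of neighbouring peaks share tags.

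The 10 kb window at Rn18s-rs5 held more tags than that of any other HIF-1α peak, 2731, and the broad peak beside it was next with 2730. A uniform spread over the 2.7 Gb genome size in the headers would give 21.2, so the window held 129 times that number. In the PPAR-γ library it held 1553 tags, 195 times the uniform number of 7.95, and ranked 4 of 94. Only 6.96% of the HIF-1α window's tags covered the summit, and 16.7% in the PPAR-γ library. Fold enrichment was accordingly low, at 2.43 (rank 217 of 219) in the HIF-1α list and at 2.86 and 5.55 (ranks 94 and 82 of 94) in the PPAR-γ list, although the pileups ranked 16 of 219 and 13 and 6 of 94. Most window tags at Rn18s-rs5 thus lay away from the summit in both libraries.

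Most window tags covered the summit at Lars2 in both libraries, and at Mir6236 in the PPAR-γ library only. At Lars2 the HIF-1α window held 79 tags and the PPAR-γ window 110, and 69.6% and 88.2% of them covered the summit. Fold enrichment ranked 18 of 219 (17.3) and 5 of 94 (23.1). At Mir6236 the windows held 23 and 35 tags, of which 47.8% and 71.4% covered the summit, and fold enrichment was 7.26 (rank 125 of 219) and 12.8 (rank 19 of 94). The HIF-1α window at Mir6236 stood at only 1.08 times the uniform number, against 4.40 times in the PPAR-γ library. Over the other peaks the median share of window tags at the summit was 37.9% for HIF-1α and 57.5% for PPAR-γ. The shares at Lars2 and Mir6236 were above these medians in both libraries. The share was higher in the PPAR-γ library at all 3 loci, and also in 65 of 86 other pairs.

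**Figure D4:**
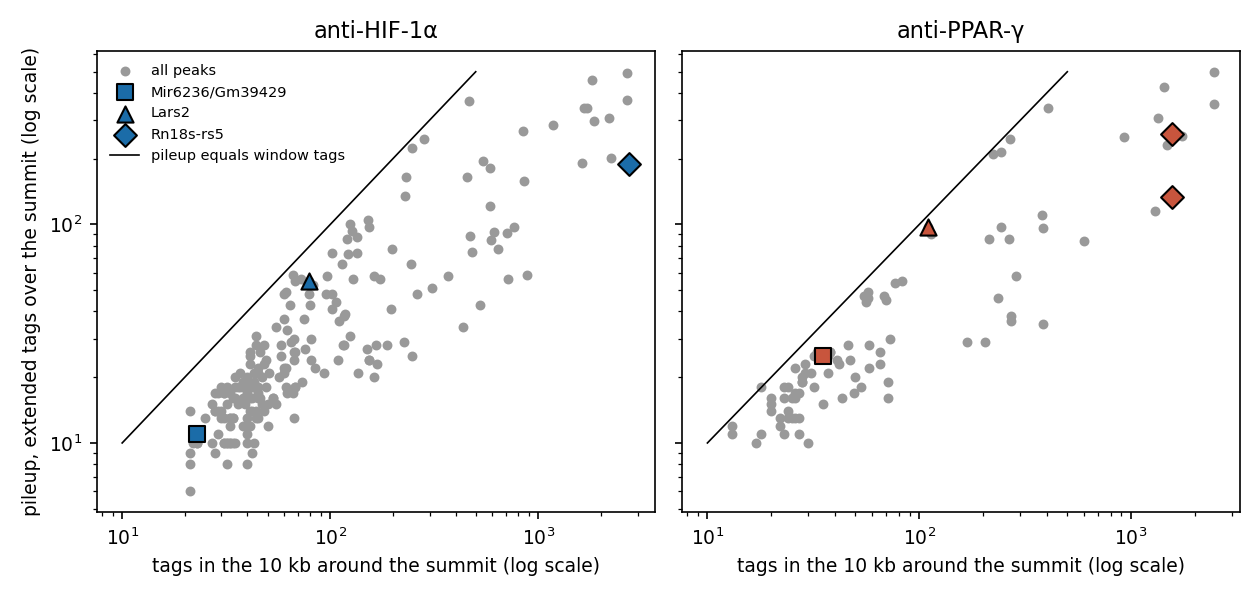
Pileup at the summit against tags in the 10 kb around it, log axes, for every peak of the HIF-1α (left) and PPAR-γ list (right), with the HIF-1α peaks at the genome-wide background drawn at its value of 21.2 tags. Lars2 lies near the line where all window tags cover the summit (55 of 79 and 97 of 110), and Rn18s-rs5 lies far to the right of it (190 of 2731 and 259 of 1553).

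Over whole windows the libraries differed less than at the summits. The depth-scaled ratio of window tags was 1.52 (1.43 to 1.62) at Rn18s-rs5, 3.72 (2.76 to 5.04) at Lars2 and 4.07 (2.34 to 7.21) at Mir6236. A window ratio of at least 2 was found in 27% of the 89 pairs where both windows could be worked out, and the median over the other pairs was 1.28. Window tags that did not cover the summit were also counted. For these the counts were 2541 and 1294 at Rn18s-rs5, a depth-scaled ratio of 1.36 (1.27 to 1.46), 24 and 13 at Lars2, 1.45 (0.677 to 2.96), and 12 and 10 at Mir6236, 2.23 (0.862 to 5.63). The median over 85 other pairs was 1.1. The intervals at Lars2 and Mir6236 are wide, rest on 24 tags or fewer in each library and include 1. Some of these tags belong to the flanks of the peak itself. At Rn18s-rs5 they also include tags of the other called peaks there, with pileups of 179 (HIF-1α) and 133 (PPAR-γ). The PPAR-γ peak with 133 is itself a member, so that ratio is not independent of the choice of members.

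Duplicate removal bears most on Rn18s-rs5. With 1 tag kept at each position and strand, no pileup could pass 568 in the HIF-1α or 590 in the PPAR-γ library. The summits at Rn18s-rs5 reached 33.5% and 43.9% of those ceilings, those at Lars2 9.68% and 16.4%, and those at Mir6236 1.94% and 4.24%. How far this lowered the values at Rn18s-rs5 was not tested.

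Other genes that may carry ribosomal RNA-related sequence were read from a list drawn up from general knowledge and from the RefSeq type, without a check on sequence. Of 78 listed names, 72 matched the gene table, and 71 genes remained after leaving out 1 name that is an older symbol of Rn18s-rs5. Within 1 kb, 3 of 71 had a HIF-1α summit, against 0.212% of all 49993 genes in the table, and 4 of 71 a PPAR-γ summit, against 0.084%. None of the genes with a summit is typed as ribosomal RNA by RefSeq, and several of them share a peak. The list was drawn up with earlier results of these data known, so nothing particular to it was read from the counts. AY036118 was counted through the Rn18s-rs5 peaks, whose summits lie 296 and 508 bp from it. The overlapping genes Cmss1, named for a ribosomal small subunit component, and Filip1l, a filamin A interacting protein-like gene, shared a peak on chromosome 16 with summits at 57391426 and 57391478. Its HIF-1α pileup was 97 and its PPAR-γ pileup 90, 16.9 and 41.9 per 1000000, a ratio of 2.48 (1.84 to 3.34). Like Lars2, this peak was compact, with 63.0% and 78.9% of the 154 and 114 window tags over the summit.

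Gm15564, a long noncoding RNA gene at chr16:35966751-35983329, had a PPAR-γ summit only. The peak ran from 35981478 to 35981814, 1.58 kb from the coding gene Kpna1, with a pileup of 23, a fold enrichment of 12.9 (rank 18 of 94) and 79.3% of 29 window tags over the summit. The nearest HIF-1α summit was 9.37 Mb away. The number of HIF-1α tags at this position was not analysed here. The profile was close to that of Mir6236 in the same library (pileup 25, 35 window tags, fold enrichment 12.8).

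Lists of this length hold few genes near so few peaks, and the counts of 0 that follow are near the background. Of the genes that RefSeq types as ribosomal RNA, most of them 5S genes, 0 of 65 had a summit within 1 kb in either list. Within 10 kb, 0.448% of all genes had a HIF-1α summit and 0.164% a PPAR-γ summit. In that window the counts in both lists were 0 of 22 matched genes for RNA polymerase I and its factors, such as Polr1a and Ubtf, 0 of 17 for ribosomal RNA processing, such as Fbl and Ncl, and 0 of 16 for the other mitochondrial aminoacyl-tRNA synthetases, the family of Lars2.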

How the data were processed

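CUT&RUN peak lists of 2 libraries were used, 1 for each antibody, grouped by the antibody in the sample titles. Per the submitters' processing notes, Bowtie2 2.2.5, SAMtools 1.1, MACS and mm10 were used. The peak caller was MACS 2.1.3.3, per the file headers, run once per library without a control file, at a q-value limit of 5%, a genome size of 2.7 Gb, 1 tag kept per position and a regional window of 10000 bp. The deposited pileup is a signal, the extended tags over a summit (fragment lengths 284 and 295 bp). The deposited −log10 p and q values and the deposited fold enrichment, a ratio to local background, are the authors' own, and so is the width in bp, another deposited value.

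Pileups were divided by tags after filtering (5737208 and 2145910). Ratios carry exact conditional binomial intervals at 95%. Window tags were computed as ((pileup + 1) / fold enrichment − 1) × 10000 / fragment length. Ratio intervals and window recovery were tested on simulated data. Gene positions came from RefSeq GRCm38.p6, the assembly of mm10. The deposited summit files matched the peak files in position and −log10 q at 219 and 94 peaks. Python 3.11.15, pandas 2.3.3 and SciPy 1.17.1 were used.

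Members and lists were chosen with earlier results of these data known. Named genes were all members, list genes with a summit, and the 3 other pairs nearest to the members' median ratio. Alternatives changed the gene window, peak limits, scaling, pairing and fold limit. With 1 library per antibody there was no test.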

Additional observations from a re-analysis of the deposited data

How the results depend on the processing

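With a fold enrichment of at least 10, member peaks fell to 1 for HIF-1α and 2 for PPAR-γ, fewer by construction; the other gene windows and peak limits gave 3 or 4 in both. The median ratio of the member pairs, 4.72, was 1.76 without scaling to depth, 3.06 when scaled by the median of the other shared pairs, 1.76 from fold enrichments and 1.45 from window tags outside the summit pileup. The last setting, the whole-window ratio and the 5 kb window for the count of pairs were chosen after seeing the data. Without scaling, 1 of 3 member pairs had a ratio of at least 2. With summits required within 50 bp, the Rn18s-rs5 pair was lost and 2 remained. No ratio of a member locus fell below 1 under any alternative run, but the members were chosen for high ratios, so this is no support. For window tags outside the summit pileup, the intervals at Lars2 (0.677 to 2.96) and Mir6236 (0.862 to 5.63) included 1. The Mir6236 ratio rests on 11 HIF-1α tags. No paired analysis was possible because there was only 1 library per antibody.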

Other observations

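The mitochondrial ribosomal RNA genes, mt-Rnr1 and mt-Rnr2, held no summit in either list. The single mitochondrial peak, in the HIF-1α list from 12484 to 12900 with a pileup of 34, overlapped neither gene.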
